A study of Mus musculus with 20 samples.

Results

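The comparison described here sets the ileal mucosa of mice with chemically induced colitis that received the bacterium Nissle by mouth against the ileal mucosa of healthy mice. The Nissle group (Nissle 1 to 5) had intrarectal DNBS and oral Nissle. The healthy group (healthy 1b, 3, 4, 5 and 6) had PBS by both routes. It covers 10 of the 20 samples of the series. The other 10 had intrarectal DNBS with either oral PBS (the DNBS group) or oral CEC (the CEC group), 5 samples each, and all 20 samples share the tissue and the panel. The members are the assays with a value in at least 3 samples of each group: 573 of 648 assays, for 518 of 584 genes. The remaining 75 assays had under 3 values in at least 1 of the groups and are described through their detection only.

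Real-time PCR counts the cycles a sample needs to reach a fixed fluorescence, the cycle threshold (Ct), so an early Ct means much template. The relative level used throughout is the sample's mean Ct over 544 assays, those with a value in all 20 samples, minus the assay's Ct. A relative level of 0 is that of the average assay of the sample, and a difference of 1 on this log2 scale is a doubling where each cycle doubles the product. The level of an assay is compared between samples only, since assays amplify with different efficiency. Fold values below are 2 to the power of the log2 difference. A Ct of 40, the value written where nothing amplified, was treated as missing.

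DNBS is a hapten that is instilled into the rectum to produce an inflammation of the large bowel, and the ileum lies upstream of the site of instillation. Nissle is a strain of Escherichia coli used as a probiotic. In an inflamed gut, epithelial and resident myeloid cells release cytokines and chemokines, activated endothelium displays selectins, and neutrophils and monocytes leave the blood along these signals.

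The mean Ct over the 544 assays lay between 22.6 and 24.1 in the Nissle samples and between 23.0 and 23.9 in the healthy samples, and 579 to 594 and 570 to 586 assays had a value. Markers of the ileal epithelium were abundant in both groups: Reg3g, an antimicrobial lectin of the small intestine, had relative levels of 10.71 to 11.82 in the Nissle samples and 10.75 to 11.95 in the healthy samples. Nissle 3, 4 and 5 carry contradictory labels: 1 field assigns them to the healthy controls, whereas title, description and both treatment fields say Nissle. They count as Nissle here, and Atrn, the only call, is also given without them. The series' design text says that RNA of several mice was pooled, so a sample may not be 1 mouse. The p-values then reflect no more than the variation among the samples, part of which may be technical.

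One sample of each group stood apart. Nissle 1 correlated with the other 4 Nissle samples at 0.789 to 0.849 across the assays, against 0.943 to 0.960 among those 4. It lay more than 1 cycle above all other Nissle samples in 61 of 556 assays and more than 1 cycle below all of them in 59, against 2 to 5 and 7 to 14 for each of the others. It also had the lowest mean Ct of all 20 samples, 22.6. Healthy 5 lay more than 1 cycle above the other healthy samples in 26 assays and below them in 74. In blocks of 54 consecutive assays of the deposited table, each sample's median deviation from the mean of all 20 samples was taken. For healthy 5 it ran from -1.71 to 1.17, a spread of 2.87, against a spread of 0.460 to 1.41 in the other 9 samples. For the lists, the value without Nissle 1 stands beside that with all samples. For many named genes whose difference moved by more than 1.5 times, the value without Nissle 1 or healthy 5 is given too. A difference given alone may still depend on either sample. The part that Nissle 1 and healthy 5 play in the results was not tested.

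Across the 573 assays, 243 were higher and 330 lower in the Nissle group, with a median difference of -0.10 (log2; interquartile range -0.42 to 0.28; median SE 0.42). In a limma fit over all 20 samples with Benjamini-Hochberg adjustment, 1 assay passed an adjusted p of 0.05, Atrn, which fell (0.175% of the assays tested). The next smallest adjusted p was 0.395. An unadjusted p under 0.05 was reached by 16 assays that were higher (2.79%) and 38 that were lower (6.63%). In 14 assays all 5 Nissle samples lay below all 5 healthy samples (2.44%), and in 3 all lay above (0.524%). Without Nissle 1, 19 of 570 assays had an unadjusted p under 0.05 (3.33%), 7 higher and 12 lower. Of these 19, 6 higher and 12 lower had it with Nissle 1 as well.

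**Figure D1:**
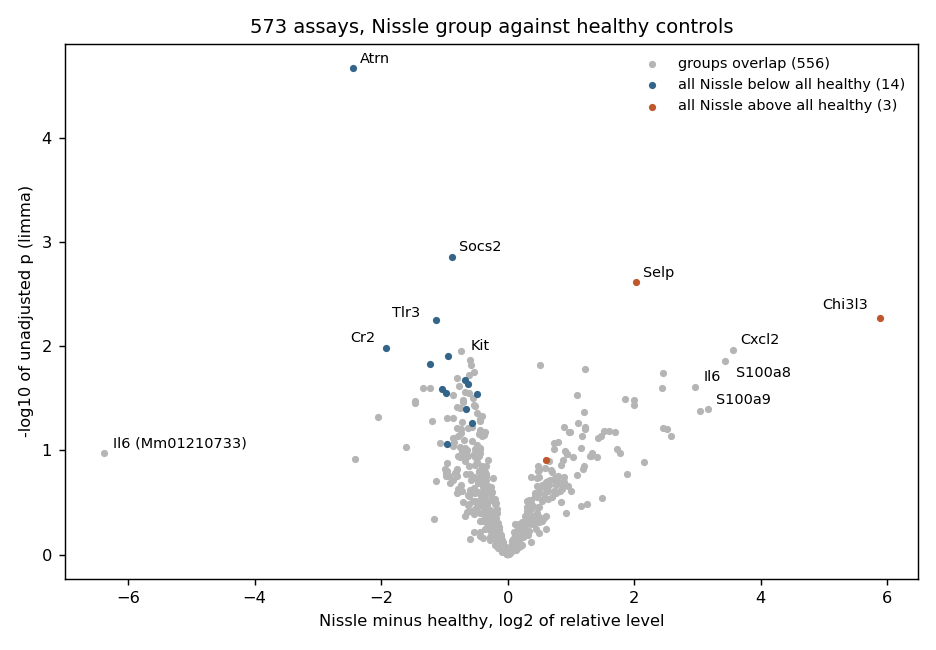
Difference between the Nissle and healthy groups for each of the 573 assays (x axis, log2 of relative level) against the -log10 of the unadjusted limma p (y axis); points are assays, coloured where all 5 samples of one group lay beyond all 5 of the other. Atrn stands alone at the top, and the assays without overlap lie mostly on the left: 14 below against 3 above.

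The regulatory sequences directly upstream of the called gene and of the 3 higher assays of smallest p (Selp, Chi3l3 and Cxcl2) are shown for orientation, from RefSeq on GRCm38.p6, each running from 250 bases before to 50 bases after the annotated start on the gene's strand. They lie at chr2:130906245-130906544 (Atrn, plus strand), chr1:164115014-164115313 (Selp, plus), chr3:106167515-106167814 (Chil3, the current symbol of Chi3l3, minus) and chr5:90903649-90903948 (Cxcl2, plus). Capitals mark matches on either strand to the GC box (GGGCGG), the TATA box (TATAAA), the core of a C/EBP site (TTNNGNAA) or the NF-kB consensus.
Atrn: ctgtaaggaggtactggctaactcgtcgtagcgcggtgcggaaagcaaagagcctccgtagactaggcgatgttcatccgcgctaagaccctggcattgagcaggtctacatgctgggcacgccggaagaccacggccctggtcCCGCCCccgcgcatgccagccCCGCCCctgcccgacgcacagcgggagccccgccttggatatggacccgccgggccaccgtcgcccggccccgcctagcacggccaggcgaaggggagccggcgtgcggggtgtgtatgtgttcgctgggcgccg
Selp: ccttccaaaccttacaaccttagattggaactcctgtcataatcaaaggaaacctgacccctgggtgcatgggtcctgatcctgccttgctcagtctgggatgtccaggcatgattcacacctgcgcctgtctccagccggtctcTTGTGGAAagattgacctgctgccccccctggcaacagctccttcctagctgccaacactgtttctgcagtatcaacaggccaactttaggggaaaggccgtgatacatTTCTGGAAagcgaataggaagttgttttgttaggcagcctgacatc
Chil3: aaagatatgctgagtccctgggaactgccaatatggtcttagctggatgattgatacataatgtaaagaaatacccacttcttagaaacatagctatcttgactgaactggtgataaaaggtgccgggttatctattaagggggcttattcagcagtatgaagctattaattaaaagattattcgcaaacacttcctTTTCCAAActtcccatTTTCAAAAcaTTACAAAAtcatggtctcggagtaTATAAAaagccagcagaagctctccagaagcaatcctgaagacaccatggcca
Cxcl2: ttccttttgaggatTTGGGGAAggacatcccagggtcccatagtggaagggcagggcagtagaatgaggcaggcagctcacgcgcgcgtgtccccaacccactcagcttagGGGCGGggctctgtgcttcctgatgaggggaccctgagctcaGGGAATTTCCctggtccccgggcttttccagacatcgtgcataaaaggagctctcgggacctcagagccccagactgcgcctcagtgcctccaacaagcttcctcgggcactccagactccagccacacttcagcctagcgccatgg
Of 32851 promoters of this length in the table, 35.7% hold the GC box, 13.6% the TATA box, 40.7% the C/EBP core and 5.81% the NF-kB consensus. Atrn has 2 GC boxes, starting 106 and 85 bases upstream, and none of the other motifs in this window, and its GC content is 69.3%. Selp has 2 C/EBP cores. Chil3 has 3 C/EBP cores, 53, 37 and 27 bases upstream, and a TATAAA that starts 3 bases upstream of the annotated start. Cxcl2 has 1 NF-kB match 97 bases upstream, beside 1 GC box and 1 C/EBP core. A match is a run of letters, and nothing measured in these samples says whether a factor binds there.

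Atrn encodes attractin, a membrane-bound and secreted protein known from the mahogany coat colour mutation, where it takes part in agouti signalling at melanocortin receptors, and from the contact of T cells with monocytes. Its relative level (assay Mm00437746_m1) was 0.053, 0.77, 0.039, -0.62 and 1.07 in Nissle 1 to 5. In healthy 1b, 3, 4, 5 and 6 it was 2.89, 3.91, 3.34, 1.39 and 2.02. The groups did not overlap, the lowest healthy sample being healthy 5. The means were 0.26 ± 0.67 (SD, n = 5) and 2.71 ± 1.01 (SD, n = 5), which is 5.45-fold lower in the Nissle group (log2 -2.45, SE 0.45, adjusted p 0.0123 by limma).

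Atrn was also low in the other groups given DNBS. The DNBS group had relative levels of -1.16 to 0.37 and the CEC group of -0.66 to 0.89, so that all 15 samples given DNBS lay below the lowest healthy sample. Against the same healthy samples the DNBS group differed by -3.04 and the CEC group by -2.20, and these comparisons share their controls. Set directly against the DNBS group, the Nissle group was 0.60 higher (log2, SE 0.45, adjusted p 0.855 by limma). Without Nissle 1 the difference from the healthy group was -2.39 (adjusted p 0.0410), and without healthy 5 it was -2.78. Without the 3 Nissle samples of contradictory label, which leaves Nissle 1 and Nissle 2, it was -2.30. The adjusted p was then 0.0809 by limma, so Atrn no longer passed the threshold. Leaving out Nissle 3 (adjusted p 0.0506), Nissle 4 (0.0652), healthy 3 (0.0586) or healthy 4 (0.0640) ended the call too, as did raw Ct without normalization (-2.01, 0.511) and a fit to these 10 samples alone (0.0917).

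Across all 20 samples the 3 assays most correlated with Atrn were Cd1d1 (Pearson's r 0.741), Ccr6 (0.651) and Erbb2 (0.648). This is a description over samples that share the panel and the normalization. Cd1d1 and Erbb2 stand in the same block of 54 assays of the table as Atrn. Their own differences between the Nissle and healthy groups were -0.72, -0.50 and -0.70.

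Genes of lower level came mostly with small differences, and in many of them Nissle 1 was the lowest Nissle sample. Over all 518 genes it was the lowest in 214 and the highest in 129. Socs2, a feedback inhibitor of cytokine and growth hormone signalling through JAK and STAT proteins, stood at 0.95, 2.12, 1.63, 1.59 and 2.24 in Nissle 1 to 5. In the healthy samples it stood at 2.67, 2.50, 2.68, 2.61 and 2.48. The healthy samples lay within 0.3 of each other and above every Nissle sample, with Nissle 1 lowest. The difference was -0.88 (SE 0.24, unadjusted p 0.00138, adjusted p 0.395 by limma), and -0.69 without Nissle 1.

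Tlr3, the endosomal receptor for double-stranded RNA, had levels of -0.08, 0.90, 0.86, 1.05 and 1.45 in the Nissle samples. The healthy samples had 1.72, 1.61, 1.65, 3.05 and 1.84, healthy 5 lying far above the other 4. The groups did not overlap with or without it, and the difference was -1.14 with all samples, -0.87 without healthy 5 and -0.91 without Nissle 1. Cr2, the complement receptor carried by B cells and follicular dendritic cells, had levels of -4.21, -3.15, -3.33, -3.42 and -5.73 in the Nissle samples against -2.37, -2.41, -2.14, -2.22 and -1.12 in the healthy samples. It was 3.77-fold lower (log2 -1.91, SE 0.68, adjusted p 0.492), and -1.85 without Nissle 1. In such bulk tissue, fewer cells of a type and less RNA per cell cannot be told apart.

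The other assays in which every Nissle sample lay below every healthy sample were of signalling, epithelial and TGF-beta genes. Map2k6, a kinase that activates p38, was lower by 0.94 on the log2 scale, from -0.20 to 0.22 in the healthy samples to -2.23 to -0.25 in the Nissle samples. Ccr8, a chemokine receptor of T helper 2 and regulatory T cells, differed by -1.23 in the assay Mm00843415_s1, and its second assay, which overlapped, by -0.70. Cftr, the epithelial chloride channel, differed by -0.67.

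Casp1, the protease that matures interleukin 1 beta, differed by -0.63, and Ifngr2, a chain of the interferon gamma receptor, by -0.66. Tgfbr1, the type I TGF-beta receptor, differed by -0.48 in one assay and by -0.15 in a second one that overlapped. Both assays of Ltbp4, which holds latent TGF-beta in the matrix, were without overlap, at -1.03 and -0.97, and Nissle 1 was the lowest sample in each. Klf6, a zinc finger transcription factor, and Sectm1b differed by -0.56 and -0.96. None of these had an adjusted p under 0.49, and Nissle 1 was the lowest Nissle sample in all of them. Without it, Ltbp4 differed by -0.65 and -0.54 and Sectm1b by -0.50.

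A further 6 assays complete the 12 lower ones of smallest p, and in these the groups overlapped. Kit, the stem cell factor receptor of mast cells and interstitial cells of Cajal, differed by -0.73, and by -0.49 without Nissle 1. Mapk14, which encodes p38 alpha, differed by -0.60, Ptpn6, the phosphatase SHP-1, by -0.54, and the chemokine Ccl6 by -0.80. Plp2 differed by -0.58. Bmp3 differed by -0.60 in its single-exon assay, but by -0.09 in the assay across an exon junction.

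**Figure D2:**
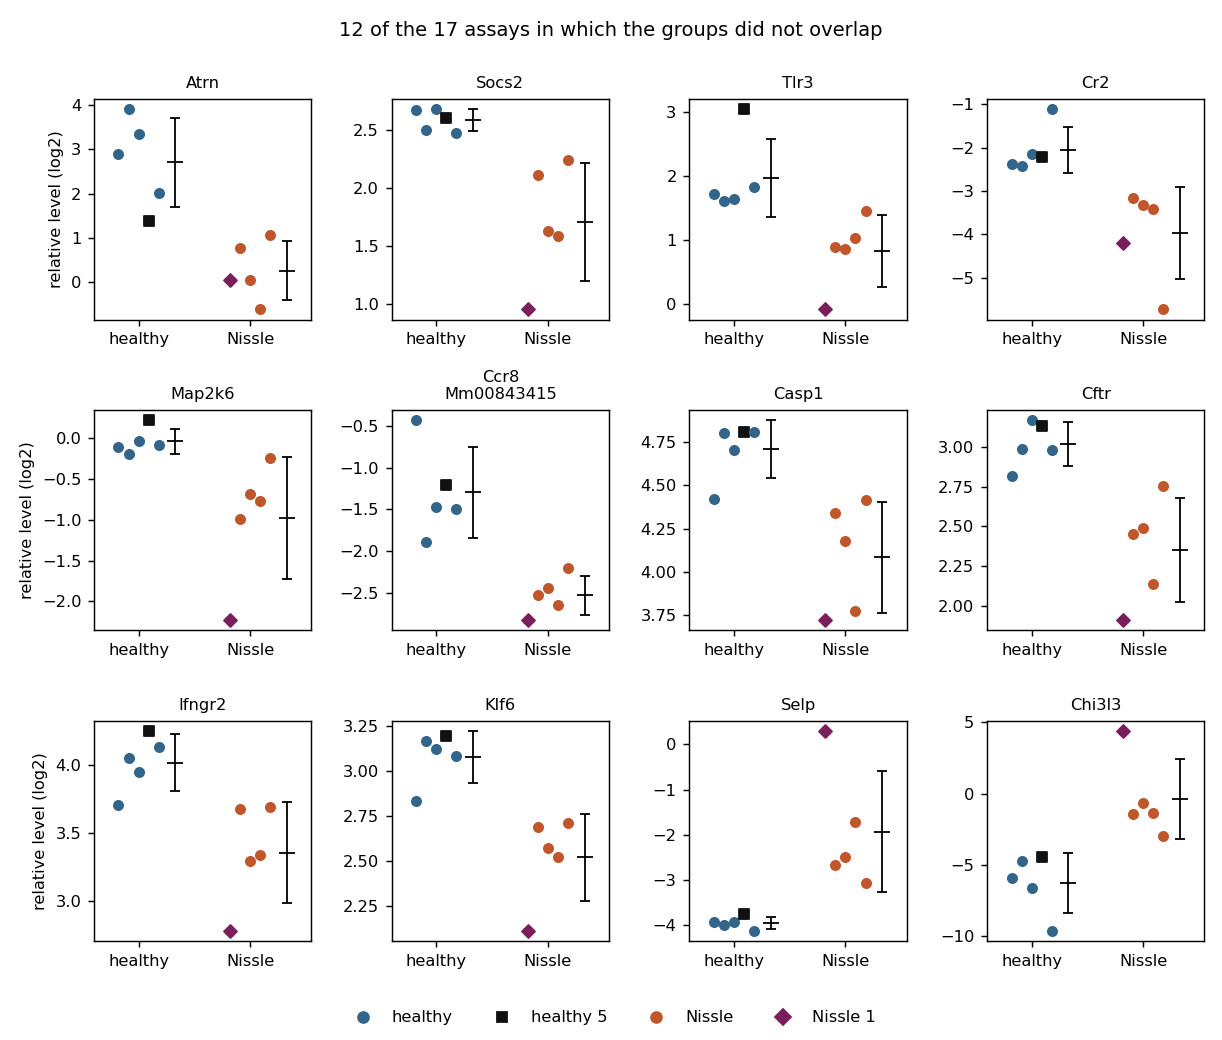
Relative level (log2) in each healthy and each Nissle sample for 12 of the 17 assays without overlap between the groups; circles are samples, the square is healthy 5, the diamond is Nissle 1, and bars give the mean and SD of 5 samples. In Socs2 and Map2k6 the healthy samples lie close together while the Nissle samples spread downwards, and in Selp and Chi3l3 Nissle 1 lies above the other 4 Nissle samples.

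Among the 12 higher assays of smallest p, the differences of Cxcl2, S100a8, Il6 and Ccl2 shrank by more than 1.5 times when Nissle 1 was left out. Selp encodes P-selectin, which activated endothelium and platelets display to roll leukocytes. Its levels were 0.31, -2.67, -2.50, -1.72 and -3.08 in the Nissle samples and -3.93, -4.00, -3.94, -3.77 and -4.14 in the healthy samples. All Nissle samples lay above all healthy samples, and the healthy samples lay within 0.4 of each other. Selp was 4.07-fold higher (log2 2.02, SE 0.59, unadjusted p 0.00242, adjusted p 0.462 by limma) and 2.76-fold higher without Nissle 1 (log2 1.46).

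Chi3l3, a chitinase-like protein of macrophages and neutrophils, stood at 4.43, -1.39, -0.62, -1.33 and -2.96 in the Nissle samples. In the healthy samples it stood at -5.90, -4.71, -6.61, -4.43 and -9.62. It was without overlap and had the largest positive difference of the 573 assays, 5.88 (SE 1.89, adjusted p 0.492), which became 4.68 without Nissle 1. Its assay carries the suffix mH, used for genes with close homologs, and the part of family copies in its signal was not tested. The DNBS group ranged from -5.84 to 3.06 and overlapped the healthy samples. Cfi, complement factor I, was the third assay with all Nissle samples above, by only 0.60, with -0.64 as the lowest Nissle and -0.65 as the highest healthy level.

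Cxcl2, a chemokine that attracts neutrophils, had levels of 2.77, -2.74, -2.30, -6.36 and -5.62 in the Nissle samples against -7.26, -6.45, -4.44, -6.19 and -7.75 in the healthy samples. Nissle 1 lay 5.07 above the next Nissle sample, and Nissle 4 and 5 lay among the healthy samples. The difference was 3.57 (SE 1.27, adjusted p 0.492) and 2.16 without Nissle 1. S100a8, one chain of the neutrophil protein calprotectin, had levels of 5.24, -0.59, -0.40, -0.16 and -2.17 in the Nissle samples and -1.54, -4.57, -4.18, -2.83 and -2.17 in the healthy samples (assay Mm00496696_g1). Its differences were 3.44 and 3.05 in 2 assays, and 2.23 and 1.75 without Nissle 1.

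Il6, the acute-phase cytokine, had levels of 1.89, -4.05, -6.34, -2.44 and -5.94 in the Nissle samples and of -7.11 to -5.26 in the healthy samples (assay Mm00446190_m1). The difference of 2.96 became 1.64 without Nissle 1. The second Il6 assay gave -6.39 instead, with 3 healthy values, 1 of which was a Ct of 5.74 in healthy 5 and the only Ct under 10 in the whole table. A further Il6 assay (Mm01210732_g1) had too few values for a level. It amplified in 3 Nissle samples (Ct 20.4 to 30.8) and 2 healthy samples (28.9 to 29.8). Ccl2, which attracts monocytes, differed by 1.86, with Nissle 1 at 2.56 and the other Nissle samples at -3.09 to -0.62, and by 0.98 without Nissle 1.

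For most of the remaining higher assays of smallest p, leaving out Nissle 1 moved the value less. Apoe, an apolipoprotein, was 1.09 higher, 1.16 without Nissle 1 and 0.73 without healthy 5. Igfbp4, which binds insulin-like growth factors, was 0.52 and 0.54 higher. Procr, the endothelial protein C receptor, was 1.22 higher, and 0.73 without healthy 5, whose level of -2.63 was far below the other healthy samples. Cxcl11, an interferon-induced chemokine, was 2.0015 and 1.74 higher, and Spp1, osteopontin, 2.44 and 1.99. Mmp25, a membrane-bound protease of leukocytes, was 2.45 higher on 3 Nissle values (Mmp25_Mm01309189_m1), but -3.06 with the Ct of 40 of the other two kept as values, and the fit without Nissle 1 left it out.

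**Figure D3:**
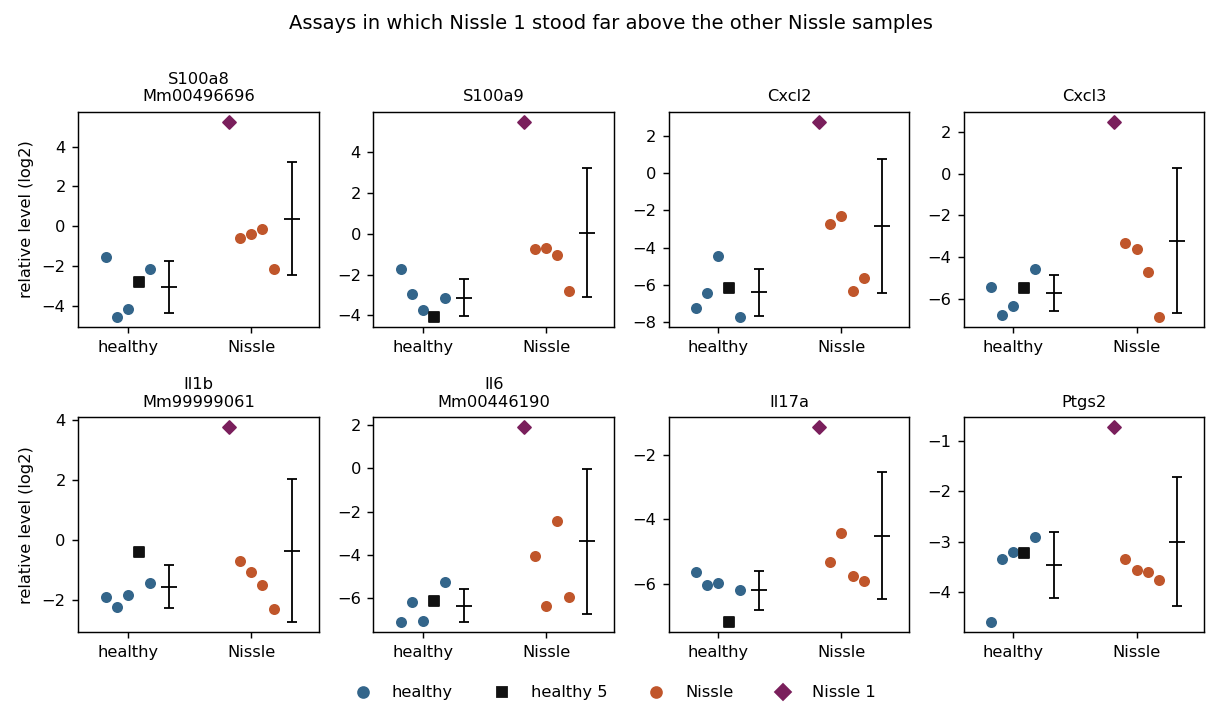
Relative level (log2) in each healthy and each Nissle sample for 8 neutrophil, chemokine and cytokine assays; circles are samples, the square is healthy 5, the diamond is Nissle 1, and bars give the mean and SD of 5 samples. Nissle 1 lies above every other sample in each panel, while other Nissle samples overlap the healthy ones.

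The inflammatory readouts named for this tissue did not pass the test. Tnf and Il10 amplified in none of the 10 samples. Il1b was 1.20 and 1.78 higher in its 2 assays, with Nissle 1 at 3.77 and 4.32, and 0.16 and 0.63 higher without that sample. Il17a, a cytokine of T helper 17 cells, was 1.70 higher and 0.86 without it.

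Ifng was 1.34 and 0.64 higher in its 2 assays, and in both healthy 5 was far below the other healthy samples. Without healthy 5 the values were 0.65 and 0.26, and without Nissle 1 they were 0.91 and 0.32. Nos2, the inducible nitric oxide synthase, was 0.59 higher, and 0.14 without healthy 5. Il12b was 1.10 and 0.19 higher, and Ptgs2, the inducible cyclooxygenase, 0.46 higher. Without Nissle 1, Ptgs2 was 0.11 lower (log2 -0.11), and the Il12b assays gave 0.68 and -0.22.

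Cell type markers and pathways are described with 1 assay per gene. Over all 518 genes, 222 were higher, 296 were lower and the median was -0.09. None of the lists held a gene that passed the adjusted test except the one with Atrn. Of the 21 neutrophil markers listed, 9 were found on the panel by symbol and all 9 were higher, with a median of 0.76. Among them were S100a9 (3.17), S100a8 (3.05), Camp (1.60) and Ltf (0.76). Nissle 1 was the highest Nissle sample in all 9, and without it 4 of 9 were higher and the median was -0.04, with S100a9 at 1.81, S100a8 at 1.75, Camp at 0.85 and Ltf at 0.22. The mean level over the 9 markers was 2.28 in Nissle 1, -1.73 to -0.71 in the other Nissle samples and -2.18 to -1.20 in the healthy samples.

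Macrophage, monocyte and dendritic cell markers were higher in 10 of 10 (median 0.79), and in 8 of 10 without Nissle 1 (median 0.37). Chi3l3 led them, followed by Fcgr2b (1.53, and 0.91 without healthy 5), an inhibitory Fc receptor, Cd86 (1.12), a costimulatory ligand, and Cd163 (0.97), the haemoglobin scavenger receptor, which was 1.16 higher without Nissle 1. T and NK cell markers were higher in 4 of 6 (median 0.12), and in 2 of 6 without Nissle 1 (median -0.04). Cd4 differed by -0.51, and by -0.25 without Nissle 1, and Ctla4 by 0.54, and by 0.88 without healthy 5. Of the B and plasma cell list 3 genes were tested, Cr2, Bcl6 (0.90) and Blnk (0.65), the latter pair at 0.54 and 0.13 without healthy 5. Of the mast cell and eosinophil list 4 were tested, Kit, Ccr3 (-0.51), Alox5 (-0.19) and Prg2 (0.04), and without Nissle 1 the last 3 gave -0.33, -0.35 and 0.48. A second Ccr3 assay gave 0.02, and the 6 assays of Alox5 ran from -0.24 to 0.61. Of the endothelial list only Selp was tested. Epithelial and apolipoprotein genes were higher in 6 of 13 (median -0.04), and in 7 of 13 without Nissle 1 (median 0.18). Ccl25, a chemokine of the small intestinal epithelium, differed by -0.87, and by -0.36 without Nissle 1.

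Pro-inflammatory cytokines were higher in 16 of 21 (median 0.49), and in 10 of 20 without Nissle 1 (median -0.09). The alarmin Il1a shows the pattern: its difference of 1.21 became 0.19. Ltb, lymphotoxin beta, was among the 5 lower ones (-0.76). Il6 counted as lower too, through its second assay (-6.39, and -7.90 without Nissle 1), which holds the Ct of 5.74 in healthy 5. The first Il6 assay, at 2.96 and at 1.64 without Nissle 1, is not in the list. Medians of the list with that assay were not computed. CXC chemokines were higher in 7 of 10 (median 0.49), and in 6 of 10 without Nissle 1 (median 0.26). Cxcl3 differed by 2.52 and Cxcl1 by 1.47, and without Nissle 1 by 1.09 and 0.59. CC, XC and CX3C chemokines were higher in 11 of 18 (median 0.04), and their receptors in 14 of 27 (median 0.00); without Nissle 1 it was 8 of 18 (median -0.03) and 11 of 27 (median -0.11). Adhesion molecules and integrins were higher in 4 of 5 (median 0.46), and in 3 of 5 without Nissle 1 (median 0.34), with Itgal at 0.68 and Itgb2 at 0.46, and at 0.27 and 0.30 without healthy 5.

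In 4 lists of signalling, growth factor and receptor genes the median was -0.29 or lower. Interferon response, JAK, STAT and SOCS genes were lower in 11 of 16 (median -0.30, and -0.15 without Nissle 1). An unadjusted p under 0.05 was reached by Socs2, Irf3 (-0.86), a transcription factor of the type I interferon response, Stat3 (-0.51) and Ifngr2, all lower. Irf3 had a second assay at -0.28. MAP kinase and PI3 kinase genes were lower in 7 of 9 (median -0.38, and -0.26 without Nissle 1), including Map2k6, Mapk14 and Pik3r1 (-0.67, and -0.42 without Nissle 1). Nissle 1 was the lowest Nissle sample in 5 of the 9 and the highest in none. Over all 518 genes it was the lowest in 214 and the highest in 129. Among the 16 reference genes it was the lowest in 9 and the highest in none.

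TGF-beta, BMP and GDF genes were lower in 15 of 21 (median -0.29), with Tgfb2 at -0.80. Without Nissle 1 the median of this list was -0.06, and 9 of 21 were higher. Nociception, kinin, histamine and neuro-immune genes, the list that holds Atrn, were lower in 9 of 13 (median -0.41, and -0.23 without Nissle 1), with Hrh1, a histamine receptor, at -0.77. Further lists lay closer to the median of all genes. Interleukin receptors were lower in 16 of 27 (median -0.12, and -0.17 without Nissle 1), with Il22ra2, the decoy receptor of interleukin 22, at -1.47 and Il22ra1 at -0.49. Reference genes were lower in 11 of 16 (median -0.14, and -0.06 without Nissle 1). Without normalization the median over all assays was 0.33 in place of -0.10, and the lists shifted with it: MAP kinase and PI3 kinase genes to 0.06, interferon and JAK genes to 0.14, TGF-beta genes to 0.13, nociception genes to 0.03, interleukin receptors to 0.32 and reference genes to 0.30.

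The remaining lists follow, with medians from -0.01 to 0.18. Toll-like receptor and NF-kB genes were higher in 13 of 26 (median 0.01, and -0.08 without Nissle 1), with Tlr3 lowest, Tlr4 at 0.18 and Myd88 at -0.03. Without Nissle 1, Tlr4 and Myd88 were at 0.08 and -0.07. TNF superfamily genes were higher in 12 of 25 (median -0.01, and 0.04 without Nissle 1), with Tnfrsf11b, osteoprotegerin, at 1.23, and 0.78 without healthy 5. Complement, coagulation and acute-phase genes were higher in 15 of 26 (median 0.12, and 0.17 without Nissle 1), with Cr2 at -1.91 and Orm1 at -2.05. Eicosanoid and phospholipase genes were higher in 9 of 13 (median 0.18), and in 6 of 13 without Nissle 1 (median -0.01). Of the anti-inflammatory and type 2 cytokines only 4 were measured often enough, Tgfb2, Il18bp (-0.40), Il1rn (0.70) and Tgfb1 (0.22). Without Nissle 1 the last 3 gave -0.26, -0.01 and 0.12, and Tgfb1 gave -0.02 without healthy 5. Leaving out healthy 5 moved some list medians as well: T and NK cell markers to 0.35, complement genes to 0.00, Toll-like receptor genes to -0.10 and neutrophil markers to 0.58. Nociception genes moved to -0.57, MAP kinase and PI3 kinase genes to -0.25, interleukin receptors to 0.02 and adhesion molecules to 0.27. Interferon and JAK genes were then at -0.35 and TGF-beta genes at -0.34. CXC chemokines were then higher in 10 of 10. Macrophage markers stayed at 0.79 and pro-inflammatory cytokines at 0.49.

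**Figure D4:**
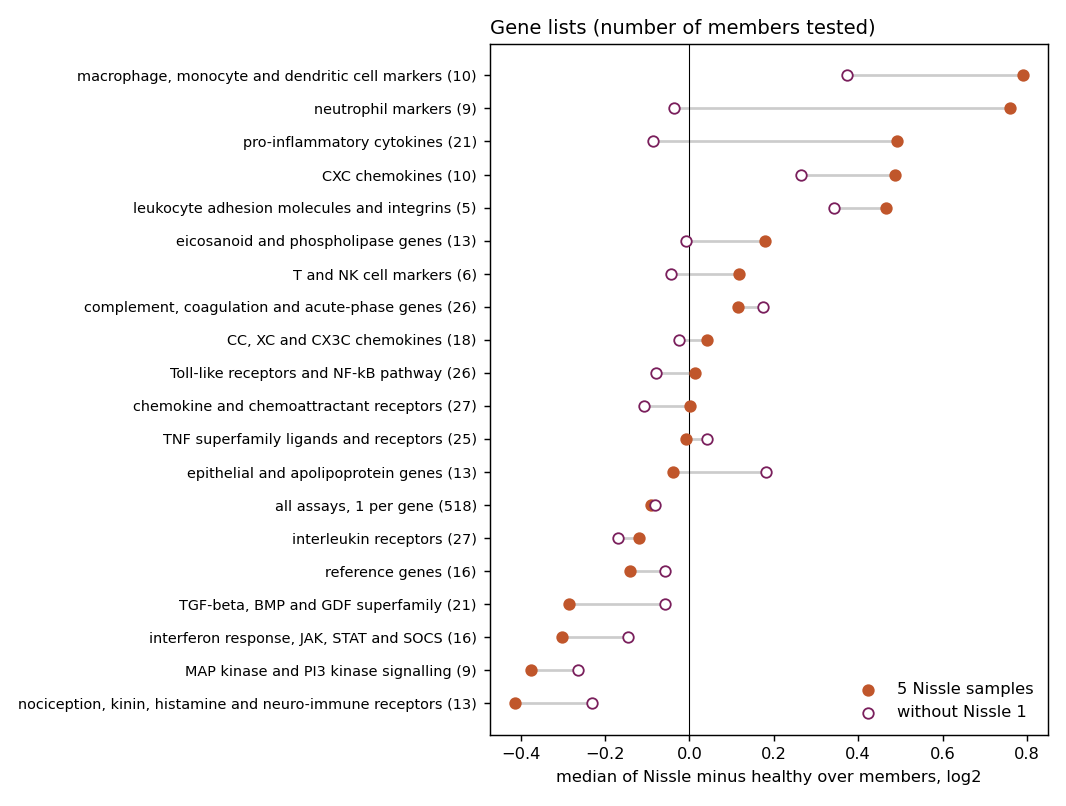
Median difference between the Nissle and healthy groups (x axis, log2) over the tested members of each gene list (y axis, with their number), for 5 Nissle samples (filled) and without Nissle 1 (open). The neutrophil median moves from 0.76 to -0.04 and the cytokine median from 0.49 to -0.09 when Nissle 1 is left out, and the macrophage median moves from 0.79 to 0.37. The cytokine list holds Il6 by its second assay, the one with a Ct of 5.74 in healthy 5.

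Assays near the detection limit were compared by presence. Of the 648 assays, 556 had a value in all 10 samples and 29 in none. Of the 63 assays between, 37 had a value in more Nissle and 14 in more healthy samples, and 12 in as many. Presence is not normalized, and without normalization the median over all tested assays was 0.33 higher in the Nissle group. The part of this in the counts was not tested. None passed Fisher's exact test after adjustment (smallest two-sided p 0.00794, which is the smallest that 5 against 5 allows, adjusted p 0.25). Before adjustment, the p of 3 assays was under 0.05. Ela2 amplified in 5 Nissle samples (Ct 30.3 to 31.8) and no healthy sample, and in 2 DNBS and 1 CEC samples. Its symbol has been used for more than one elastase gene, so it is kept as deposited and was not counted among the neutrophil markers. Scgb3a1, a secretoglobin, amplified in 5 Nissle samples (Ct 28.0 to 31.6) and no healthy sample, and in 3 DNBS and 5 CEC samples. Il31ra amplified in 5 Nissle samples and 1 healthy sample.

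Genes measured by several assays give a check of single values. Of 44 such genes, 26 had the same direction in all their assays, and the differences of a gene's assays lay a median of 0.44 apart. Both assays of Ccl7, a monocyte chemokine, gave 1.42 (0.45 and 0.56 without Nissle 1), and the assays of Cxcl1 gave 1.47 and 2.0022 (0.59 and 1.18). In 2 genes, Il6 and Cntfr, the assays lay more than 1 apart.

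The kind of assay also went with the difference. The 53 single-exon assays, which can amplify genomic DNA, had a median of -0.43, with 40 of them lower. For the 51 assays of the type marked g1, which may amplify it too, the median was -0.16. For the 462 assays across an exon junction it was -0.05. Without Nissle 1 the single-exon median was -0.32. Among the lower genes described above, the -0.60 of Bmp3, -1.23 of Ccr8, -0.51 of Ccr3 and -0.77 of Hrh1 come from single-exon assays. Socs2, Plp2, Ltb, Orm1 and the Ltbp4 assay Mm00723639_g1 are of the g1 type, as are the S100a8 assays, which were higher. Atrn was measured across an exon junction. The second Hrh1 assay, across a junction, gave -1.34. The part of genomic DNA in these values was not tested.

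Set beside the DNBS group with oral PBS, measured against the same healthy samples, several of the named genes had differences of similar size, and these comparisons share their controls. Chi3l3 differed by 5.88 in the Nissle and 6.44 in the DNBS group, S100a8 by 3.44 and 4.42, Selp by 2.02 and 1.59, and Socs2 by -0.88 and -0.95. In the direct limma test of Nissle against DNBS, 0 assays were called (smallest adjusted p 0.852), while the unadjusted p was under 0.05 for 24 of 570 assays (4.21%). The direct test of Nissle against CEC called 0 as well (smallest adjusted p 0.998), with 8 of 571 assays under 0.05 before adjustment (1.4%).

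Apoe and Irf3 were among the 24 of 570 assays (4.21%) with an unadjusted p under 0.05 against the DNBS group. Neither passed after adjustment. Apoe had levels of 4.33, 5.19, 4.44, 4.68 and 4.30 in the Nissle samples, 2.53 to 4.26 in the DNBS samples and 2.03 to 4.74 in the healthy samples. The Nissle samples lay 1.02 above the DNBS samples on average (SE 0.47, unadjusted p 0.041 by limma), whereas the DNBS and healthy groups differed by 0.07. The nearest levels were 4.30 and 4.26, and assays without overlap were not counted for this comparison. Irf3 was 0.82 lower than in the DNBS group (log2 -0.82, unadjusted p 0.035 by limma), and the DNBS group differed from the healthy group by -0.03. This is the Irf3 assay at -0.86 against the healthy group, and the second one gave -0.28 there.

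**Figure D5:**
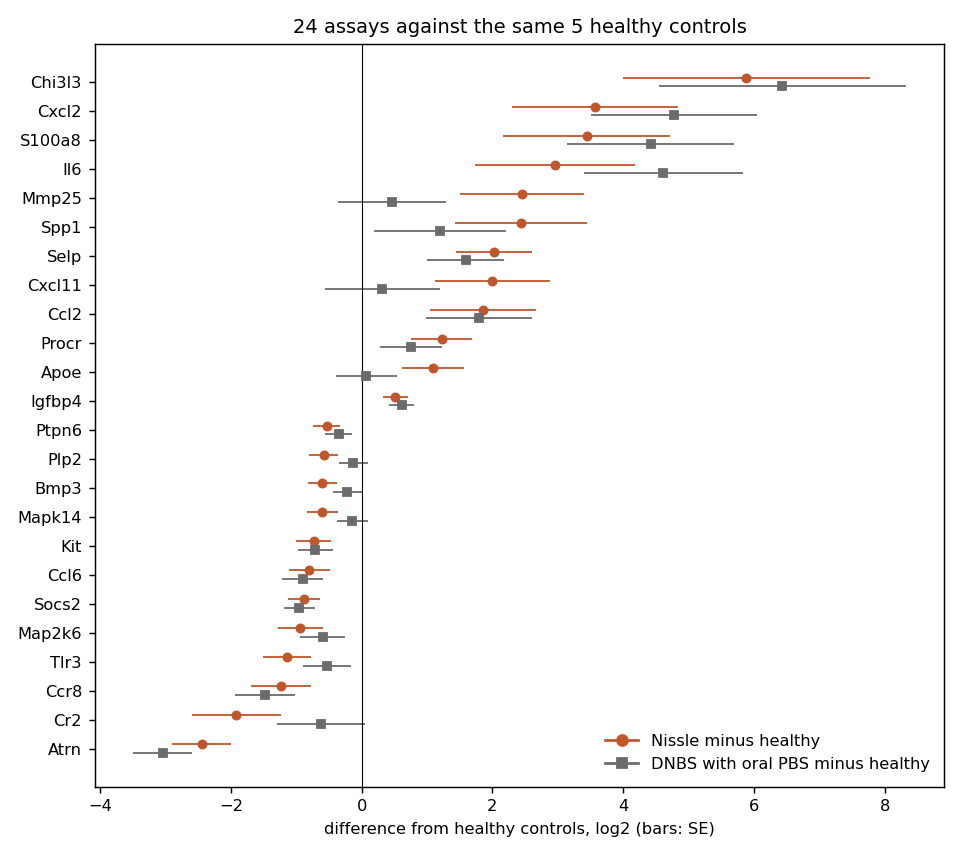
Difference from the healthy controls (x axis, log2, bars give the SE) for the 12 higher and 12 lower assays of smallest p in the Nissle comparison (y axis), in the Nissle group (circles) and in the DNBS group with oral PBS (squares), both against the same 5 healthy samples. The assays were chosen on the Nissle values. Apoe lies at 1.09 and 0.07, and Atrn at -2.45 and -3.04.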

How the data were processed

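Total RNA of mouse ileal mucosa was profiled on the TaqMan OpenArray mouse inflammation panel, per the labels' protocols. Per the file headers, the deposited table holds Ct values as measured, without normalization, and its first line calls it a truncated example, so it may lack assays of the panel. Baseline and threshold settings, and whether wells were averaged, are not given in the sources used here. Of 12960 values, 1273 were 40 and 1 was empty. Relative levels were fitted with limma 3.58.1 (R 4.3.3; 4 group means, all 20 samples, eBayes with trend; Benjamini-Hochberg, threshold 0.05), tested on simulated data. Presence of a value was tested with Fisher's exact test (scipy 1.17.1). Named were the 12 assays per direction of smallest p, assays without overlap, up to 4 members by p of each list, inflammatory readouts, detection of at least 4 against at most 1, and the 3 assays most correlated with Atrn. Other genes were named after their values were seen. Lists use the assay of lowest mean Ct per gene. The members and lists were chosen with earlier results of these data known. Symbols were checked in RefSeq (GRCm38.p6): 15 were renamed and 9 did not match. Alternatives covered normalization, filters, fits, and each sample left out.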

Additional observations from a re-analysis of the deposited data

Results flagged for a closer look

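In 104 groups of 5 samples (from 34 assays named by p or as readouts and the mean levels of 19 gene lists), 13 single samples lay far from the other 4 of their group by Dixon's test at 95%, where chance gives about 1 group in 20. Nissle 1 was the far sample in 5 of them: S100a8 in the assay Mm00496696_g1 (relative level 5.24), the first Ifng assay, Mm01168134_m1 (-1.90), Il1b in the assay Mm99999061_mH (3.77), Ptgs2 (-0.72) and the neutrophil marker mean (2.28), each above the other Nissle samples. Healthy 5 was the far sample in 4: Procr (-2.63), Tlr3 (3.05) and both Ifng assays (-7.71 and -3.79). Healthy 1b was far below its group in Spp1 (-7.30), Ptgs2 (-4.60) and the Il12b assay Mm00434174_m1 (-7.18), and healthy 6 was far above it in Cr2 (-1.12).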

How the results depend on the processing

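Atrn remained called in 32 of 40 alternatives, and its difference ran from -2.78 to -2.15 when single samples were left out. The count of called assays was 0 in place of 1 without normalization (Atrn -2.01), in the fit to the Nissle and healthy samples alone (-2.45) and without the 3 samples of contradictory label (-2.30), and ranged from 0 to 1 when single samples were left out. The cause was not tested. With the replicate block, Atrn differed by -2.69 (adjusted p 0.155), the count was 0, and 18 assays had an unadjusted p under 0.05. Same-numbered samples did not deviate together (correlations -0.40 to -0.15 for the numbers 3, 4 and 5). So few values, which include healthy 5, cannot decide whether the numbers pair samples. With healthy 1b counted as number 1, the replicate block kept the call (adjusted p 0.0231). Over all alternatives the adjusted p of Atrn ran from 4.25e-08 (blocks of 54 assays centred, chosen after seeing the data) to 0.511. The number of assays with an unadjusted p under 0.05 was 19 without Nissle 1, 13 without Nissle 1 and healthy 5 together (also chosen after seeing the data) and 115 without the 3 samples of contradictory label, against 54. The comparisons with DNBS and CEC and of detection gave 0 calls in every alternative run.

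None of the 96 other named assays was called in any alternative, and 16 changed sign in at least 1. With Ct of 40 kept, Mmp25_Mm01309189_m1 was -3.06 and Il6_Mm01210733_m1 was 0.88. With the replicate block, Il12b_Mm99999067_m1 was -0.26, Ptgs2_Mm00478374_m1 -0.019, Il12b_Mm00434174_m1 -0.51, Cd28_Mm00483137_m1 0.11, Icos_Mm00497600_m1 -0.18 and Itgam_Mm00434455_m1 -0.62 (-0.11 with 1b as number 1, -0.12 with array weights). Without Nissle 1 and healthy 5, Nos2_Mm00440502_m1 was -0.035, Ifng_Mm99999071_m1 -0.053, Ptgs2 -0.0529, the second Il12b assay -0.032, Cd28 0.059 and Itgam -0.088. With blocks of 54 assays centred, Icos was -0.19 and Itgam -0.19. With single samples left out, Ptgs2_Mm00478374_m1 ranged from -0.11 to 0.65, Icos_Mm00497600_m1 from -0.0086 to 0.26, Il12b_Mm00434174_m1 from -0.40 to 0.95 and Itgam_Mm00434455_m1 from -0.14 to 0.36. Without normalization, Cd28_Mm00483137_m1 was 0.15, Ccl28_Mm00445039_m1 0.0025, Map2k3_Mm00435950_m1 0.064, Il10rb_Mm00434157_m1 0.029, Gapdh_Mm99999915_g1 0.11, Ywhaz_Mm01158417_g1 0.098 and Actb_Mm00607939_s1 0.18, and with quantile normalization Gapdh was 0.041 and Actb 0.27.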

Other observations

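Genes of fat tissue were low in Nissle 1, a pattern chosen after the values were seen. Adipoq, the adipokine adiponectin, was -2.81 in Nissle 1 and 1.26 to 2.31 in the other Nissle samples. Retn, resistin, was -3.22 in Nissle 1 and 0.05 to 1.29 in the others. Cfd, adipsin, was -0.66 in Nissle 1 and 2.14 to 3.59 in the others, and Fabp4, a fatty acid carrier of adipocytes, lay 2.11 and 1.59 below the lowest of them in its 2 assays. None passed the test between the Nissle and healthy groups, with differences of -0.52 for Adipoq, -0.39 for Retn, 0.18 for Cfd and 0.96 and 0.55 for the Fabp4 assays. They do not share a direction, and no list of fat tissue genes was used.

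Some assays in which Nissle 1 lay far above the other Nissle samples were also chosen after the values were seen. S100a9 lay 6.17 above the next Nissle sample, Cxcl3 5.80, Il1a 4.81 and the pentraxin Ptx3 4.60. Without Nissle 1, Ptx3 differed from the healthy group by 0.11, against 1.50 with it.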
